A study of Drosophila melanogaster with 4 samples.

Results

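Regions enriched in dimethylated lysine 9 of histone H3 (H3K9me2) were described along the X chromosome of Drosophila melanogaster, from the tip of the arm sequence to the start of its pericentric part. The members are the enriched regions of the authors' combined list that lie on X and end at least 3 Mb before the end of its arm sequence, which is at position 22422827 next to the centromere (FlyBase release 5). They number 1401 of the 5614 enriched regions of that list and 1401 of its 1759 regions on X. The same interval held 706 of 3667 regions in ChIP replicate 1 and 852 of 4728 in ChIP replicate 2. The study made 2 chromatin immunoprecipitation (ChIP) libraries from nuclei of wild-type Oregon-R larvae of the last instar, with a single antibody against H3K9me2. It also made 2 input libraries of the same strain and stage, from sheared chromatin without immunoprecipitation, and the labels assign input replicates 1 and 2 to ChIP replicates 1 and 2. No mutant, drug or transgene was used. The labels give neither the sex of the larvae nor a tissue, nor do they state that the replicates are independent collections of larvae, and the spread of 2 replicates may therefore be technical only.

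H3K9me2 is written by the methyltransferases Su(var)3-9, G9a and Eggless, and it is bound by heterochromatin protein HP1a. In flies it marks repeats near the centromeres and at the telomeres, and it also occurs in shorter stretches within the gene-rich arms. The X differs from the autosomes in that males carry a single copy, whose genes are transcribed at a raised rate by the dosage compensation complex.

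Between the tip and the boundary the mark was spread over the whole length of X in many short regions. The 706 regions of replicate 1 covered 2.30 Mb, and the 852 of replicate 2 covered 2.52 Mb. This was a density of 36.3 and 43.9 regions per Mb, or 40.1 ± 5.32 (SD, n = 2), and a covered share of 11.8% and 13.0%, or 12.4% ± 0.800 (SD, n = 2). The replicate with more regions also covered more of the interval. In the combined list the interval had 72.1 regions per Mb and was covered over 22.3%. The interval supplied 19.3% and 18.0% of all regions of replicates 1 and 2 but only 8.88% and 10.3% of their enriched bases.

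Regions were mostly short, with a tail of long ones. Lengths began at 1303 bp in replicate 1 and 1301 bp in replicate 2, and the medians were 2205 bp and 2038.5 bp, or 2122 ± 118 bp (SD, n = 2). Regions at the 90th percentile measured 6255 bp and 5410 bp, and the longest spanned 41159 bp and 33970 bp. Regions of at least 10 kb numbered 18 in replicate 1 and 19 in replicate 2. They made up 2.55% and 2.23% of the regions but held 13.0% and 12.3% of the enriched bases. Deposited scores, the authors' own enrichment value per region on a scale not stated, had medians of 0.746 and 0.723, or 0.735 ± 0.0166 (SD, n = 2). The middle 50% of scores lay between 0.660 and 0.937 in replicate 1 and between 0.621 and 0.854 in replicate 2. Longer regions scored higher, with a Spearman correlation between length and score of 0.754 across the 706 regions of replicate 1 and 0.670 across the 852 of replicate 2. These correlations are across regions of the same library and are given as a description.

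**Figure D1:**
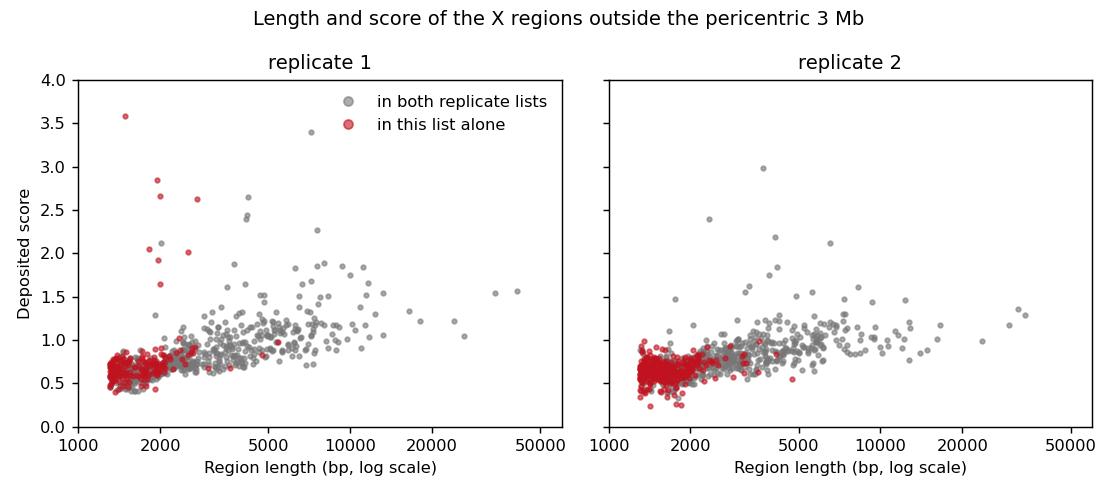
Length (horizontal, bp, log scale) and deposited score (vertical) of each X region outside the pericentric 3 Mb, in replicate 1 (left) and replicate 2 (right); grey points overlap the other replicate list by at least 1 bp and red points do not. Red points crowd at short lengths, and replicate 1 alone has short red points that score 2 or more.

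X carried several times more regions per Mb than any autosomal arm when the 3 Mb next to the centromere were left out everywhere. In replicate 1 the density was 36.3 per Mb on X, whereas 2L had 11.1, 3L had 10.4, 2R had 9.64 and 3R had 7.39. In replicate 2 it was 43.9 per Mb on X, whereas 3L had 14.5, 2L had 13.9, 2R had 13.7 and 3R had 10.9. X therefore lay above all 4 arms in both lists, at 3.82 and 3.34 times the density of the 4 arms pooled and at 3.26 and 3.03 times that of the densest arm. Coverage gave ratios of 4.58 and 4.02, from 11.8% and 13.0% on X against 2.58% and 3.22% on the autosomal arms. The excess was larger among strongly scored regions. When each whole list was reduced to the 50% of regions that scored highest, X kept 109 of 706 and 150 of 852 regions in the interval. Both were smaller shares than the 50% kept of each whole list. The density ratio to the autosomal arms was then 6.17 and 7.87. An exact permutation test over 2 libraries cannot give a two-sided p below 0.5, so none was made and each difference is given beside the spread of the replicates.

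Median length and median score differed less between X and the autosomal arms than the number of regions did. Median length was 2205 bp on X against 2007 to 2217 bp on the 4 arms in replicate 1, where 2R lay above X. It was 2038.5 bp on X against 1841.5 to 2013 bp in replicate 2. Median scores were 0.746 on X against 0.610 to 0.663 in replicate 1, and 0.723 on X against 0.584 to 0.621 in replicate 2, so that X lay above every arm in both. Long regions differed more. Those of at least 10 kb numbered 18 of 706 and 19 of 852 regions on X, against 7 of 805 and 6 of 1110 on the 4 autosomal arms together. That is 0.927 and 0.978 per Mb on X against 0.0827 and 0.0709 per Mb on the autosomal arms.

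**Figure D2:**
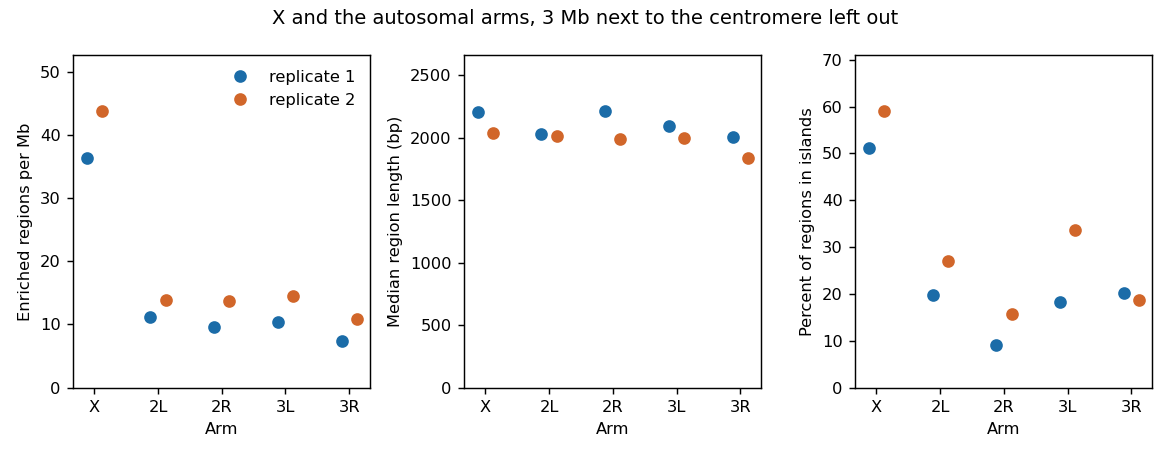
Regions per Mb (left), median region length in bp (middle) and percent of regions in islands (right) on X and on the 4 autosomal arms, with the 3 Mb next to the centromere left out; each point is 1 replicate list. X stands above every autosomal arm in density (36.3 and 43.9 per Mb) and in the share of regions in islands, while its median length lies near those of the arms.

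Regions of X lay close together, and their spacing was uneven. The median gap between neighbouring regions was 9804 bp in replicate 1 and 7634 bp in replicate 2, or 8719 ± 1534 bp (SD, n = 2). On the autosomal arms the median gaps were 41742 to 68056 bp in replicate 1 and 24604 to 38356 bp in replicate 2. A gap of at most 1000 bp followed 97 regions of replicate 1 and 123 of replicate 2, which is 13.8% and 14.5% of the gaps on X. The autosomal arms had 5.41% to 8.05% and 7.29% to 11.3% of their gaps in that range. Denser regions have shorter gaps by position alone, and that part of the differences in gaps was not tested. At the other end, 34 gaps of replicate 1 and 27 of replicate 2 exceeded 100 kb and took up 5.28 Mb and 3.91 Mb of the interval. The standard deviation of the gaps was 1.55 and 1.57 times their mean on X, where gaps placed at random at an even rate would give about 1. On the autosomal arms the same ratio was 1.19 to 1.71 in replicate 1 and 1.29 to 1.43 in replicate 2, so the unevenness of X lay within the autosomal range in replicate 1 and above it in replicate 2.

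**Figure D3:**
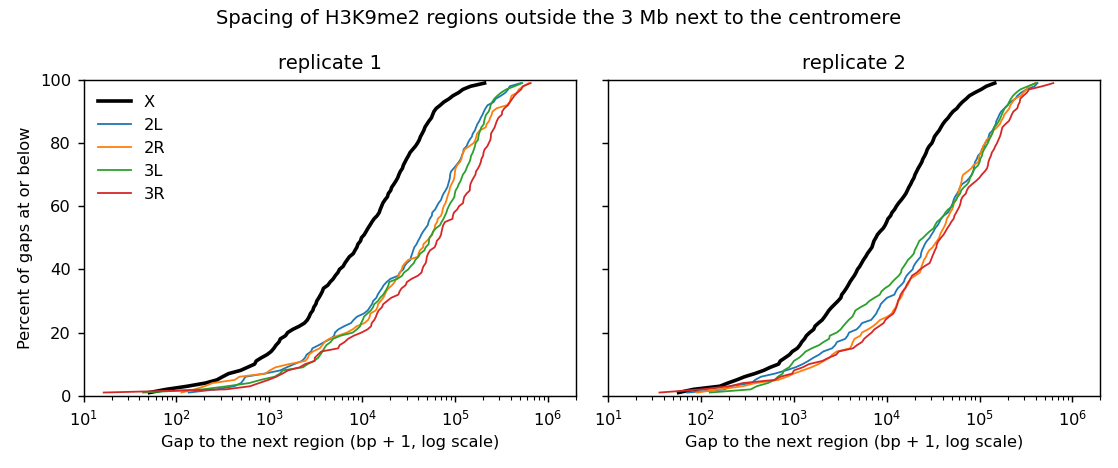
Percent of gaps between neighbouring regions (vertical) that are no longer than a given length (horizontal, bp plus 1, log scale) in replicate 1 (left) and replicate 2 (right); the black line is X and the thin lines are the 4 autosomal arms, each without the 3 Mb next to the centromere. The X line lies to the left of the arms over most of the range, with median gaps of 9804 and 7634 bp.

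The evenness of region counts was described in windows of several sizes. The ratio of the variance to the mean of the number of regions per window, about 1 for random placement at an even rate, was 1.04 in both lists in 1942 windows of 10 kb. It was 1.98 and 2.10 in 194 windows of 100 kb, and 3.38 and 3.31 in 38 windows of 500 kb. The ratio thus lay above that of random placement at 100 kb and 500 kb and close to it at 10 kb, where no window held more than 4 regions. It moves towards 1 where windows hold few regions, and the mean counts were 0.364 and 0.439 at 10 kb. They were 3.63 and 4.39 at 100 kb and 18.3 and 22.0 at 500 kb. How much of the rise with window size comes from this was not tested. In windows of 100 kb the autosomal arms gave 1.51 to 1.71 in replicate 1 and 1.64 to 2.13 in replicate 2. X lay above all 4 arms in replicate 1 and within their range in replicate 2. The arms held fewer regions per window, and the effect of this on the comparison was not tested. Neighbours were also compared in strength. The Spearman correlation between the score of a region and that of the next one was 0.0601 and 0.0907, and for length it was 0.0276 and -0.00388. In the combined list the values were 0.106 for score and 0.0753 for length, and all are given as a description across regions.

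An island was counted as a run of at least 3 regions with gaps of at most 10 kb. Replicate 1 had 81 islands holding 51.3% of its regions, and replicate 2 had 105 islands holding 59.2%. The typical island had a median of 4 regions in both lists and spanned 23.3 kb and 22.0 kb at the median. Islands together spanned 11.3% and 14.8% of the interval. Of the islands of replicate 1, 70 (86.4%) overlapped an island of replicate 2, and 70 (66.7%) of the islands of replicate 2 overlapped one of replicate 1. Regions inside islands were little different from the 344 and 348 regions outside them. Their median length was 2248 and 2064 bp inside, against 2180 and 2004.5 bp outside, and their median score 0.758 and 0.732 inside, against 0.738 and 0.715 outside. On the autosomal arms islands held 9.14% to 20.1% of the regions in replicate 1 and 15.7% to 33.7% in replicate 2. A fixed gap of 10 kb finds more islands where regions are denser, and that part of the difference was not tested.

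The island with the most enriched bases lay at 17808202 to 17972664 in the combined list. It joined 17 regions over 164.5 kb and was enriched over 91.0% of that span, with 74.6% covered in replicate 1 and 61.2% in replicate 2. In replicate 1 it was a single island of 19 regions (17813873 to 17971949), whereas in replicate 2 the island with the most bases there ended earlier (17809410 to 17893943, 10 regions, 84.5 kb). The next by enriched bases spanned 115.2 kb at 4988420 to 5103608, with 46.4% and 41.4% covered in the replicates. The others spanned 87.8 kb at 16349870 to 16437640 (84.6% and 84.5%), 107.0 kb at 11923362 to 12030358 (54.1% and 47.1%) and 130.3 kb at 4161534 to 4291838 (27.9% and 34.3%). The island that began at 16349870 was the most fully covered of the 5 in both replicates, with 6 regions in replicate 1 and 5 in replicate 2. Outside the first 5 of the combined list, 2 further islands ranked among the first 5 in both replicate lists. One had 4 regions in replicate 1 (15836152 to 15877914) and 8 in replicate 2 (15803159 to 15877612). The other lay further from the centromere (5240425 to 5298081 with 9 regions in replicate 1, and 5240305 to 5301089 with 11 in replicate 2).

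The longest members covered by at least 50% in both replicates all lay between positions 15849500 and 17890388. The longest spanned 43.5 kb (17818508 to 17861962), of which replicate 1 covered 99.2% and replicate 2 95.6%. The replicate region with most of it scored 1.56 in replicate 1 and 1.35 in replicate 2. A region of 28.4 kb (17861992 to 17890388) began almost directly after its end and was covered over 90.5% and 70.9%, with scores of 1.05 and 1.01. In the combined list the enrichment was thus nearly continuous over both. A similar pair began at 16353412. Its first region of 34.2 kb (16353412 to 16387612) was a single region in each replicate, with 99.5% and 99.3% covered and scores of 1.55 and 1.29. Its neighbour of 37.3 kb (16391262 to 16428550) was covered over 95.4% and 97.7%. The fifth spanned 28.2 kb (15849500 to 15877748), was covered over 98.5% and 98.2%, and scored 1.05 and 0.985. Genes and repeats at these positions were not analysed here, since the gene table at hand belongs to release 6.

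The 5 members with the highest scores among those found in both replicates were other members than the 5 longest. Groups of 5 among 463 such members would seldom share any, so this says little about length and score. Of the combined regions found in both replicates, the highest score, 2.39, belonged to a region of 4.25 kb at 10991764 to 10996012, which scored 2.44 in replicate 1 and 2.19 in replicate 2. The next were 5.13 kb at 12824922 to 12830052 (2.65 and 1.75 in the replicates), 4.57 kb at 2505660 to 2510226 (2.40 and 1.85), 7.61 kb at 1521822 to 1529430 (2.27 and 2.11) and 6.24 kb at 322372 to 328606. The lowest cover of these 5 by a replicate was 76.0%, and all 5 were shorter than 10 kb. A further strong site was chosen after its values were seen. Replicate 1 scored 3.40 there (14173617 to 14180791) and replicate 2 scored 2.98 (14177193 to 14180888). This was the highest score of replicate 2 and the second highest of replicate 1 in the interval. The combined list placed it inside a longer region (14170760 to 14184082, 13.3 kb) that scored 0.950. Scores of the combined list ran lower in the interval, with a median of 0.500 against 0.746 and 0.723 in the replicates. The value of 0.950 lay above the 90th percentile of the combined list there, which was 0.862.

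The gradient along the arm from the tip was shallow next to the local variation. In windows of 1 Mb counted from the tip, replicate 1 had 18 to 55 regions and replicate 2 had 19 to 70. The lowest was the eighth window (7 to 8 Mb) with 18 and 19 regions, and the highest was the twelfth (11 to 12 Mb) with 55 and 70 regions. Both replicates thus placed the extremes in the same windows. The window from 5 to 6 Mb was also dense (52 and 62), as was that from 18 to 19 Mb (52 and 57), whereas that from 16 to 17 Mb was sparse (26 and 25). Split at its middle, the interval had 38.6 and 46.6 regions per Mb in the 9.71 Mb next to the pericentric part (the proximal part), against 34.1 and 41.1 in the 9.71 Mb next to the tip (the distal part), a ratio of 1.13 and 1.14. The same ratio ranged over the autosomal arms from 0.828 to 1.67 in replicate 1 and from 0.771 to 1.32 in replicate 2, so the value for X lay within the autosomal range.

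Covered bases leaned further towards the centromere than the number of regions did. The proximal part was covered over 13.4% and 14.3%, against 10.2% and 11.6% in the distal part, a ratio of 1.31 and 1.23. In the combined list it was 1.17. For enriched bases the autosomal arms gave 0.755 to 1.69 in replicate 1 and 0.728 to 1.33 in replicate 2. X lay within that range in both lists. It was below 3R in both and also below 2R (1.25) in replicate 2. Most of the long regions of the replicate lists lay in the proximal part too. Of the regions of at least 10 kb, 13 of 18 in replicate 1 and 14 of 19 in replicate 2 lay in the proximal part, against 5 in the distal part in both lists. Of regions of any length, the proximal part held 375 of 706 and 453 of 852. The combined list was more even, with 30 of its 53 long members in the proximal part and 23 in the distal part, beside 736 of all 1401 members in the proximal part. Median length was 2203 and 2014 bp in the proximal part, against 2210 and 2088 bp in the distal part, so typical regions did not lengthen towards the centromere. Median scores were 0.744 and 0.713 in the proximal part, against 0.748 and 0.735 in the distal part. Across the 19 full windows of 1 Mb, the Spearman correlation with the distance from the tip was 0.315 and 0.252 for the number of regions and 0.509 and 0.409 for coverage, given as a description of 1 chromosome. The last 0.423 Mb before the boundary, not a full window, was left out of these correlations. It had 28.4 and 35.5 regions per Mb and was covered over 7.66% and 9.29%. These values lay below the 36.3 and 43.9 per Mb and the 11.8% and 13.0% of the interval.

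**Figure D4:**
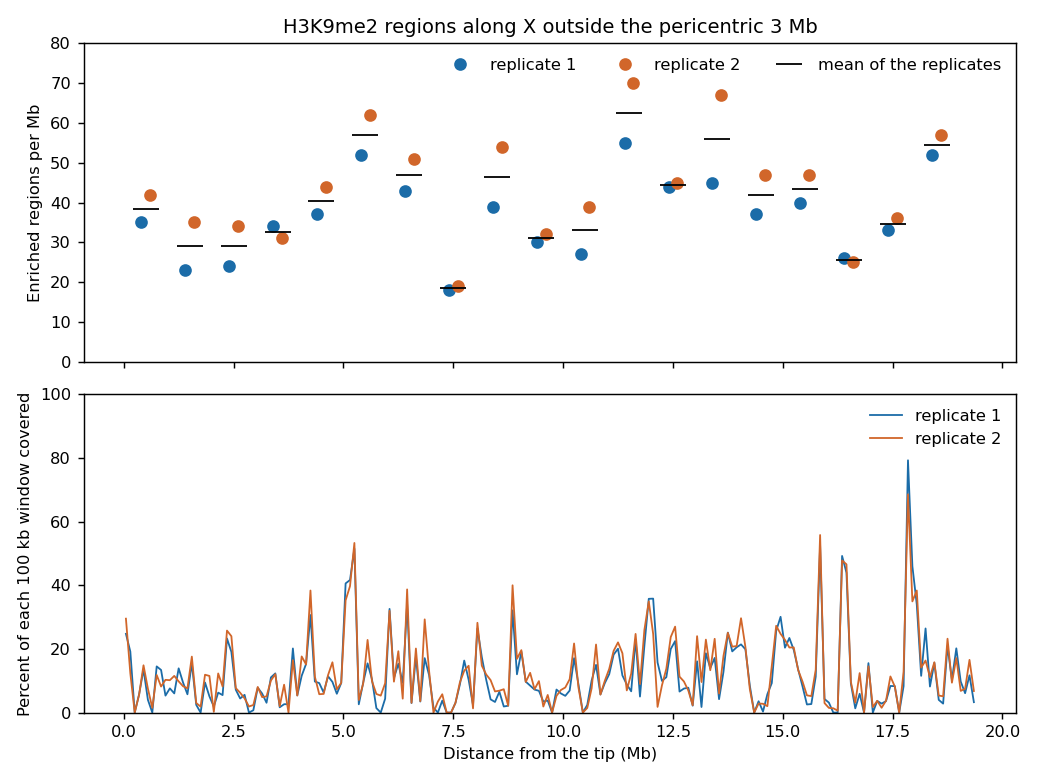
Regions per Mb in windows of 1 Mb (top) and percent of each 100 kb window covered (bottom) against the distance from the tip of X in Mb; points and lines are the replicate lists, and black bars are their means. Both replicates share the sparse window at 7 to 8 Mb (18 and 19 regions) and the coverage maximum at 17.8 to 17.9 Mb (79.3% and 68.6%).

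Most windows of X were denser than any window of the autosomal arms. In replicate 1, 15 of the 19 windows of X had more regions than the densest of 83 autosomal windows, which had 26, and in replicate 2 it was 16 of 19 against a densest autosomal window of 31. The median window of X had 37 and 44 regions. On the 4 autosomal arms the medians ranged from 7 to 9.5 in replicate 1 and from 10.5 to 14 in replicate 2.

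The replicates were also compared at a finer scale. Of 194 windows of 100 kb, 176 (90.7%) held enriched bases in both lists, 10 in one list and 8 in neither. Coverage reached at least 25% in both replicates in 17 windows (8.76%) and at least 50% in both in 3 windows. The windows with the highest mean coverage were 17800001 to 17900000 (73.9% ± 7.55), 15800001 to 15900000 (54.1% ± 2.37), 5200001 to 5300000 (52.4% ± 1.25), 16300001 to 16400000 (48.5% ± 1.00) and 16400001 to 16500000 (45.3% ± 1.86; SD, n = 2 for each).

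Stretches without a region in either replicate list were also counted. There were 22 of over 100 kb, with 12 in the proximal part and 10 in the distal part, and together they made up 3.14 Mb or 16.2% of the interval. The longest, 331.4 kb at 7241629 to 7573041, lay in the sparse window at 7 to 8 Mb, and the combined list placed 3 regions there that covered 1.40% of it. After it came stretches of 225.4 kb from 9632497, 192.1 kb from 10357476 and 176.1 kb from 16767577. In the combined list alone the longest gap between neighbouring members was 197.4 kb (14298421 to 14495777), followed by 196.8 kb (7376227 to 7573023), 193.1 kb (9639403 to 9832541), 138.2 kb (10357485 to 10495667) and 126.6 kb (7248367 to 7374931). The longest of these was not free in the replicates, since 2 regions of replicate 2 lay within it and a region of replicate 1 reached into its end, while the other 4 held none.

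The tip itself was enriched. The first member spanned 13.1 kb (72 to 13168), scored 1.27, and replicate 1 covered 99.8% of it and replicate 2 54.4%. Replicate 1 had a single region there (96 to 13286, score 1.54), and replicate 2 had 3 separate regions (522 to 2277, 5104 to 8797 and 9985 to 11659) that scored 1.47, 1.07 and 1.11. A second member of 4.20 kb (14316 to 18510) scored 1.32 and 1.10 in the replicates. The next members, from 20486, 29976 and 41342, scored 0.640, 0.614 and 0.577 in replicate 1 and 0.669, 0.570 and 0.610 in replicate 2, all below the median of their list. The first 1 Mb as a whole had 35 and 42 regions and was covered over 10.0% and 10.2%, below the 11.8% and 13.0% of the interval.

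No region crossed the boundary in any of the 3 lists. The last member (19403124 to 19404988) scored 0.318 in the combined list, 0.413 in replicate 1 and 0.398 in replicate 2. The first region beyond it lay at 19427250 to 19429636 in the combined list, with a score of 0.496, and at 19436400 in replicate 1 and 19436752 in replicate 2, with scores of 0.828 and 0.541. Inside the interval the density was 36.3 and 43.9 per Mb, against 72.3 and 89.0 per Mb in the 3 Mb beyond it, and coverage was 11.8% and 13.0% inside, against 29.9% in both replicates beyond.

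The replicates shared 1738 kb of enriched sequence in the interval, or 75.6% of what replicate 1 covered and 69.0% of what replicate 2 covered. The Jaccard index, shared bases over bases in either list, was 0.565. On the autosomal arms without the 3 Mb next to the centromere it was 0.452 to 0.533, and in the last 3 Mb of X it was 0.624. Lists that cover more of a sequence overlap more by position alone, and that part was not tested. Of the regions in the interval, 541 of replicate 1 (76.6%) overlapped replicate 2 by at least 1 bp, beside 81.7% of all regions of that list. In the other direction 556 regions of replicate 2 (65.3%) overlapped replicate 1, beside 79.7% of all its regions. Both shares lay below those of the whole lists, which also hold the regions outside the interval, and the reason was not tested. On the autosomal arms the shares were 75.5% to 82.9% for replicate 1 and 54.0% to 62.9% for replicate 2.

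Longer regions were found in the other list more often. A longer region meets an overlap of 1 bp more easily by position alone, and that part was not tested. Among the shortest 25% of replicate 1 (1303 to 1657 bp) 53.7% of regions were found in replicate 2, and among the longest 25% (3767 bp and more) 98.9% were. For replicate 2 the shares were 28.5% among its shortest 25% and 98.1% among its longest 25%. All regions of at least 10 kb overlapped the other list, 18 of 18 in replicate 1 and 19 of 19 in replicate 2. By score the shares ran from 65.5% in the lowest 25% to 94.4% in the highest 25% in replicate 1, and from 44.7% to 94.4% in replicate 2. The 165 regions in replicate 1 alone measured 1670 bp at the median and its shared regions 2592 bp, with median scores of 0.695 and 0.787. The 296 regions in replicate 2 alone measured 1577.5 bp and its shared regions 2754 bp, with median scores of 0.648 and 0.774.

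**Figure D5:**
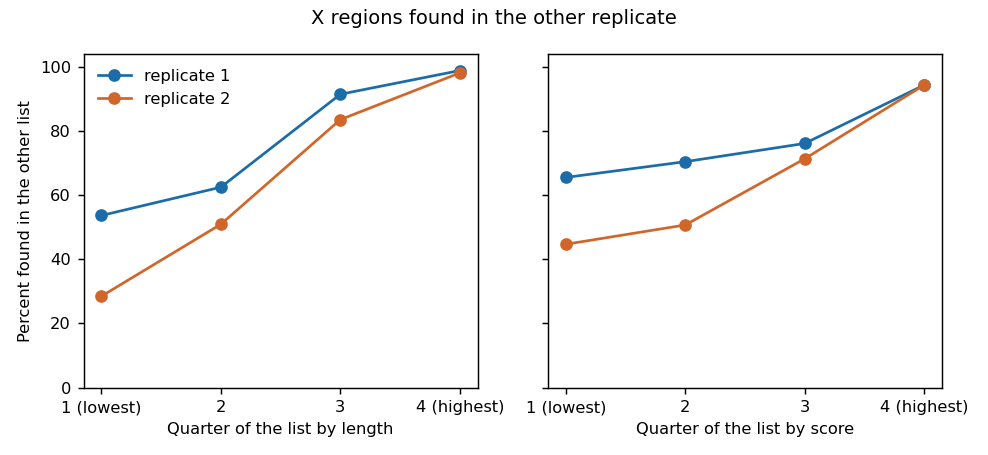
Percent of X regions outside the pericentric 3 Mb that overlapped the other replicate list by at least 1 bp (vertical), with each list cut into groups of 25% by length (left) and by score (right), from lowest to highest. The share climbs to 98.9% and 98.1% in the longest 25% and to 94.4% in the highest-scoring 25% of both lists. A longer region meets this overlap more easily by position alone.

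Some of the strongest regions of replicate 1 did not follow that pattern. Of its 12 regions scoring 2 or more, 6 were absent from replicate 2, whereas all 4 such regions of replicate 2 were found in replicate 1. The highest score of replicate 1, 3.59, belonged to a region of 1.49 kb (11432013 to 11433503) with no overlap in replicate 2. Regions of 1.95 kb (131224 to 133171, score 2.85) and 2.00 kb (6327319 to 6329319, score 2.66) were likewise in replicate 1 alone.

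Edges were compared only between regions that overlapped, so a match in position was set by that choice. Regions split or joined between the lists were left out. Pairs in which 1 region of a list overlapped exactly 1 of the other numbered 414. Their starts differed by a median of 246 bp and their ends by 283 bp. Both edges lay within 200 bp in 18.8% of pairs and within 1000 bp in 78.5%. Across the pairs the Spearman correlation was 0.773 for score and 0.763 for length. The score was higher in replicate 1 in 59.4% of pairs, while the median score of the paired regions was 0.760 in replicate 1 and 0.766 in replicate 2.

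A large part of the combined list in the interval rested on neither replicate list alone. Of the 1401 members 463 (33.0%) overlapped both replicate lists, beside 43.5% of all 5614 combined regions. A further 387 (27.6%) overlapped a single list, with 134 in replicate 1 and 253 in replicate 2. The other 551 (39.3%) overlapped neither, beside 33.2% of all combined regions. On the autosomal arms the shares were 30.0% in both lists, 26.9% in one and 43.1% in neither, each within a few percentage points of X. Members in both lists measured 4377 bp and scored 0.675 at the median, and they held 62.0% of the members' bases. Those in neither measured 1269 bp and scored 0.466 at the median, and they held 18.5%, and 296 of the 551 were shorter than the 1301 bp of the shortest replicate region. Conversely, 2 regions of replicate 1 and 23 of replicate 2 had no base in the combined list, and none of them overlapped the other replicate.

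The highest scores of the combined list in the interval belonged to very short regions found in neither replicate list. Of 21 members scoring 2 or more, 14 overlapped neither list, 3 a single list and 4 both. The top score of 3.77 was shared to all decimals by 3 members of 1.32, 1.86 and 1.01 kb (2026220 to 2027542, 4885472 to 4887336 and 13893896 to 13894908). The same value occurred in 9 regions over all sequences, none longer than 1865 bp.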

How the data were processed

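H3K9me2 was measured by ChIP-seq in 2 ChIP libraries, each with its own input. Per the submitters' processing notes Bowtie 0.12.7 was used, and per the file headers coordinates follow FlyBase release 5. Neither the caller and its cutoffs nor the way the replicates were combined is stated in the sources used here. For each region the deposited score is the authors' enrichment value, with no stated scale or log base, and it served only to describe and rank regions. The lists hold no read counts, so depth is unknown and no counting interval can be given for lengths or scores. Inputs have no region lists.

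Regions named as depleted were dropped and regions running past a sequence end were trimmed to it. Replicate regions were chosen by the same rule as the members, and autosomal arms were cut by the same 3 Mb. Regions were assigned to windows by their midpoint. The interval functions were tested on simulated lists with known gaps and overlaps (Python 3.11.15, numpy 2.4.6, pandas 2.3.3).

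Named regions are the first and last member, the 5 longest covered by at least 50% in both replicates, the 5 highest-scoring found in both, the 5 islands with the most enriched bases, the 5 longest gaps, the 5 windows of 100 kb with the highest coverage, and those next to the boundary. The other tip regions, the replicates' own islands, stretches free in both replicates, top scores of single lists and tied scores were singled out after their values were seen. Members and rules were chosen with earlier results of these data known. Alternatives were each list alone, a minimum length of 2000 bp, the 50% with the highest scores, merging within 1000 bp, other island gaps, 5 Mb at each end, 5 Mb in place of 3 Mb, and overlap of 50%.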

Additional observations from a re-analysis of the deposited data

How the results depend on the processing

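With 2 lists of 1 condition no test was made, and values rest on the authors' calling at unknown depth. X stayed denser than the autosomal arms in each alternative run: the mean ratio of 3.58 became 3.84 with a minimum length of 2000 bp, 3.61 with the last 5 Mb left out and 7.02 in the top-scoring 50% of each list. Leaving out or joining regions changes these values by construction, and the cause of the other changes was not tested. In that top-scoring 50%, covered share was 4.18%, density 6.67 per Mb, median length 5147 bp, median score 1.13, median gap 84671 bp, islands 2.5 on average, proximal over distal density 1.11 and the Jaccard index 0.519. With a minimum length of 2000 bp they were 9.54%, 22.2 per Mb, a score of 0.859, a gap of 19553 bp, 40.0 islands, a density ratio of 1.10 and an index of 0.624. Merging within 1000 bp gave 34.4 regions per Mb, a median length of 2267 bp, a gap of 12742 bp and an index of 0.573. Comparing 5 Mb at each end gave a density ratio of 1.15. Island counts with gaps of 5 and 20 kb were 73.5 and 103.5, against 93 at 10 kb. Members found in both lists were 26.8% when 50% of a member had to be covered, and 64.9% among members of at least 2000 bp. No paired analysis was possible because only the ChIP libraries have region lists. Inputs with the same replicate numbers could enter only through the authors' calling, whose method is not stated in the sources used here. The Jaccard index needs both lists, so leaving out a replicate gives none.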
